A study of Canis lupus familiaris with 4 samples.

Results

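Predicted canine miRNAs are the rows of the deposited miRNA table whose names begin with cfa_novel_, which the authors obtained by running miRDeep2 on the reads of the 4 libraries pooled. The table held 673 rows, of which 508 were known canine miRNAs and 165 were predicted, and 164 of the predicted rows are described here because the selection rule left out 1. Among these rows, 8 pairs had mature sequences that were exact reverse complements of each other, and each such pair was counted once, by its lower-numbered row, which left 156 predicted miRNAs. Small RNA was sequenced from EVs of 2 canine mammary gland adenocarcinoma cell lines of 1 dog, CHMp from the primary tumor (EVs called pTDEs) and CHMm from a metastasis (EVs called mTDEs), with 2 replicate libraries per line. Both lines were grown in RPMI medium with fetal bovine serum and gentamicin, then moved to medium without serum or antibiotics. From this medium the EVs were collected by ultrafiltration and ultracentrifugation, and no other treatment is named for these libraries. The paper also made luciferase-expressing cells of both lines and does not say that these were sequenced. Each tumor stage was thus represented by a single cell line. The paper calls the replicates biological, and neither it nor the labels say what set them apart (cultures, EV preparations or days), so the p-values measure only the spread between these libraries. The comparison asks which predicted miRNAs differed in level between pTDEs and mTDEs.

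A miRNA is cut by Drosha and then Dicer from a hairpin precursor, and its seed, the stretch near the 5′ end, directs the silencing complex to matching messenger RNAs. miRDeep2 looks for genomic loci where stacked small RNA reads fit the products of Dicer cutting a hairpin, and gives each locus a score that rises with the number and arrangement of its reads and with the stability of the hairpin. A prediction is a candidate: fragments of other abundant RNAs can also pile up on sequence that folds, and secreted vesicles are known to carry many such fragments beside miRNAs.

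The sequences on which the results below turn are given 5′ to 3′ as the authors' list of predictions has them, with the seed (bases 2 to 8) in capitals. The first 5 had the highest levels in both cell lines, the next 5 were among those with the largest differences towards mTDEs, the next 4 were found in pTDEs alone, and the last 6 are a reverse-complement pair, a mature sequence listed at 2 loci, 2 neighboring precursors and a near copy of the most abundant member.
cfa_novel_148: cUCCCUCUgcuucacuuga
cfa_novel_143: gGGAGAAGuccucaucacuggcca
cfa_novel_129: uUUCCCCCccccaccccc
cfa_novel_1: aGGACUGUccaaccugagagug
cfa_novel_2: uGCGGGGCuagggcuaacagca
cfa_novel_5: aUGCGGAUaugggacugagacca
cfa_novel_7: uCCCACACggcgcacucggg
cfa_novel_8: uGAGCCACccaggcgccccuug
cfa_novel_82: gGCAGACAgcuccuggggguc
cfa_novel_136: uCUCUUCAgagcguuuacuuu
cfa_novel_26: uUCUCCUCcucccagccaggu
cfa_novel_75 and cfa_novel_115: gGGUGGGGcggaggaggg
cfa_novel_63: cGCGCGGGgggggcggggc
cfa_novel_57: uGGCGCUCaccggagccgaggug
cfa_novel_10: uCAGUCUUuggccugccucuc
cfa_novel_11: gAGAGGCAggccaaagacuga
cfa_novel_94 and cfa_novel_95: cCAGUCCAgcugccccggcac
cfa_novel_27: gGUUGAUCagagaacauacauu
cfa_novel_131: aUAAUACAugguuaaccucuuu
cfa_novel_29: cUCCCGCUgcuucacucga

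Levels are CPM, reads scaled to a library total of 1000000, recovered from the deposited values. Depth ranged from 2330271 reads in mTDE replicate 2 to 6296386 in pTDE replicate 1, with both mTDE libraries shallower than both pTDE libraries, and 1 read was worth 0.159 to 0.429 CPM. A listed 0 allows up to 3 reads, a limit that ran from 0.476 CPM in the deepest library to 1.29 CPM in the shallowest and covers counting error only. All 7 epithelial miRNAs checked (the mir-200 family, mir-203 and mir-205) were above 0 in both mTDE libraries and summed to 23718 to 26413 CPM there, against 73.9 to 104 CPM in pTDEs with 4 of them at 0. Of the 6 blood cell miRNAs checked, 5 had a row and summed to 151 to 545 CPM in pTDEs and 220 to 1621 CPM in mTDEs, with 1 at 0 in both libraries of each line. The liver miRNA mir-122 stood at 98.5 to 158 CPM in pTDEs and 364 to 570 CPM in mTDEs. The authors used 2 sequencing platforms and the labels do not name the one of each library, so platform and cell line cannot be told apart.

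Most predicted miRNAs were seen in few libraries. Of the 156, 31 were above 0 in all 4 libraries, 43 in 2 or 3 and 82 in exactly 1, and none was at 0 throughout, since the predictions came from these reads. Counting identical mature sequences once as well would leave 150. The counts here are over the 156 and hold both rows of 6 such pairs, of which 5 had the same values in every library. In pTDEs, 54 were above 0 in both libraries and 35 in only 1, and in mTDEs 40 were above 0 in both and 90 in only 1. Counted in any library of a line, the numbers were 89 in pTDEs and 130 in mTDEs, the opposite order. Of the 82 seen once, 10 were in pTDE replicate 1, 6 in pTDE replicate 2, 34 in mTDE replicate 1 and 32 in mTDE replicate 2. Thus 66 of the 82 lay in an mTDE library, the shallower pair.

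The members seen in a single mTDE library were not at its detection limit. The predictions were made from the pooled reads, so the reads behind such a member lay almost wholly in that library, which favors counts above its limit. Why the other replicate was at 0 was not tested. In mTDE replicate 1 the 34 lay between 5.21 and 18.2 CPM, or 18 to 63 reads, and at the same CPM each would have given 12.1 to 42.5 reads in replicate 2, where it was at 0. The 32 of mTDE replicate 2 lay between 8.58 and 30.4 CPM, or 20 to 71 reads, and would have given 29.6 to 105 reads in replicate 1. The highest of them, cfa_novel_93, was at 30.4 CPM in mTDE replicate 2 and at 0 in the other 3 libraries, and cfa_novel_94, which has the seed of human miR-455-3p in the authors' annotation, was at 18.2 CPM in mTDE replicate 1 and at 0 elsewhere. In pTDEs the single-library members were lower in CPM, at 2.06 to 4.45 CPM in replicate 1 and 3.36 to 5.14 CPM in replicate 2. These were 13 to 28 and 17 to 26 reads, since 1 read was worth less CPM in pTDEs. At the same CPM they would have given 10.4 to 22.5 reads in replicate 2 and 21.2 to 32.4 reads in replicate 1. Rows were also binned by their higher library of a line, at 5 to under 50 CPM. In this bin in mTDEs, 23 of 108 predicted miRNAs (21.3%) were above 0 in both libraries, against 40 of 73 known miRNAs (54.8%). In pTDEs the same shares were 29 of 34 (85.3%) and 58 of 62 (93.5%). Where both libraries of a line had at least 10 reads, the median difference between replicates was 0.83 on the log2 scale for 38 predicted and 0.63 for 225 known miRNAs in pTDEs, and 1.14 for 34 predicted and 0.82 for 204 known miRNAs in mTDEs.

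**Figure D1:**
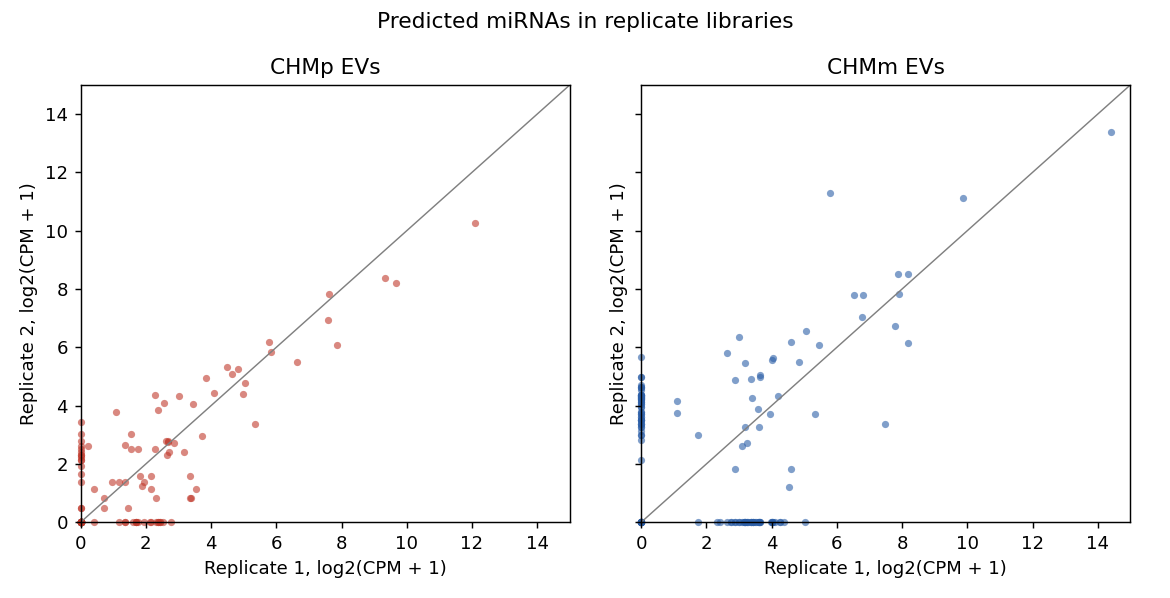
Levels of the 156 predicted miRNAs in replicate 1 (horizontal) against replicate 2 (vertical), both as log2(CPM + 1), in pTDEs (left) and mTDEs (right); each point is 1 miRNA and the line marks equal levels. In mTDEs 90 points lie on an axis, at 0 in 1 library, against 35 in pTDEs.

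A few members carried most of the signal. cfa_novel_148, whose precursor lies at chr19:27195692-27195746 on the minus strand of CanFam3.1, was the most abundant in both lines, at 4396 and 1223 CPM in pTDEs (here and below, replicate 1 before replicate 2) and 21749 and 10786 CPM in mTDEs. Both mTDE libraries were above both pTDE libraries, and replicate 1 was the higher one in each line. Its mean was 2810 ± 2244 CPM in pTDEs, rank 44 of all 673 rows, and 16267 ± 7752 CPM in mTDEs, rank 14 (SD, n = 2). The mean in mTDEs was 5.79-fold higher, with a log2 fold change of -2.72 ± 0.77 (pTDEs minus mTDEs, SE) and an adjusted p of 0.15 by limma. That value was -1.80 without pTDE replicate 2 and -3.65 without pTDE replicate 1.

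cfa_novel_143 (chr1:107011806-107011867, plus strand) followed, at 818 and 293 CPM in pTDEs and 933 and 2222 CPM in mTDEs. The 2 lines did not overlap, but pTDE replicate 1 and mTDE replicate 1 were close, and the log2 fold change was -1.55 ± 0.75 (SE, adjusted p = 0.33, limma). It was -0.82 without pTDE replicate 2, -0.93 without mTDE replicate 2, -2.29 without pTDE replicate 1 and -2.18 without mTDE replicate 1. cfa_novel_129 (chr14:5108600-5108658, minus strand), whose mature sequence is made almost wholly of C after its first bases, was at 646 and 334 CPM in pTDEs and 54.4 and 2515 CPM in mTDEs. The mTDE libraries lay on either side of the pTDE libraries and no direction could be given: the log2 fold change was 0.32 ± 1.93 (SE, adjusted p = 0.95, limma), and -2.43 without mTDE replicate 1, 3.07 without mTDE replicate 2 and -0.16 without pTDE replicate 1.

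The next members varied less between replicates. cfa_novel_1 (chr24:47411219-47411275, minus strand) was at 197 and 227 CPM in pTDEs and 236 and 362 CPM in mTDEs, a log2 fold change of -0.47 ± 0.52 (SE, adjusted p = 0.65, limma) that was -0.16 without mTDE replicate 2 and -0.77 without mTDE replicate 1. cfa_novel_2 (chr5:36178245-36178322, plus strand), which has the seed of human miR-744-5p in the authors' annotation, was at 193 and 123 CPM in pTDEs and 286 and 367 CPM in mTDEs, a log2 fold change of -1.07 ± 0.55 (SE, adjusted p = 0.33, limma). Neither overlapped between the lines and neither passed the test. By mean level cfa_novel_1 stood above cfa_novel_2 in pTDEs, at 212 ± 21.1 against 158 ± 49.5 CPM, and below it in mTDEs, at 299 ± 89.3 against 327 ± 57.4 CPM (SD, n = 2). The ranges of the 2 miRNAs did not separate in mTDEs and were just apart in pTDEs.

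The predicted miRNAs together summed to 7112 and 2909 CPM in pTDEs, or 0.711% and 0.291% of the libraries, and to 25345 and 18804 CPM in mTDEs, or 2.53% and 1.88%. cfa_novel_148 alone made up 61.8%, 42.0%, 85.8% and 57.4% of these sums. Without it the sums were 2716 and 1686 CPM in pTDEs and 3596 and 8018 CPM in mTDEs. Without cfa_novel_143 and cfa_novel_129 as well, they were 1252 and 1060 CPM against 2609 and 3281 CPM. The mTDE libraries were above the pTDE libraries in each of these sums, and 2 against 2 libraries cannot give an exact two-sided permutation p under 0.333. In EV libraries, fewer vesicles carrying a miRNA and fewer copies per vesicle cannot be told apart.

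**Figure D2:**
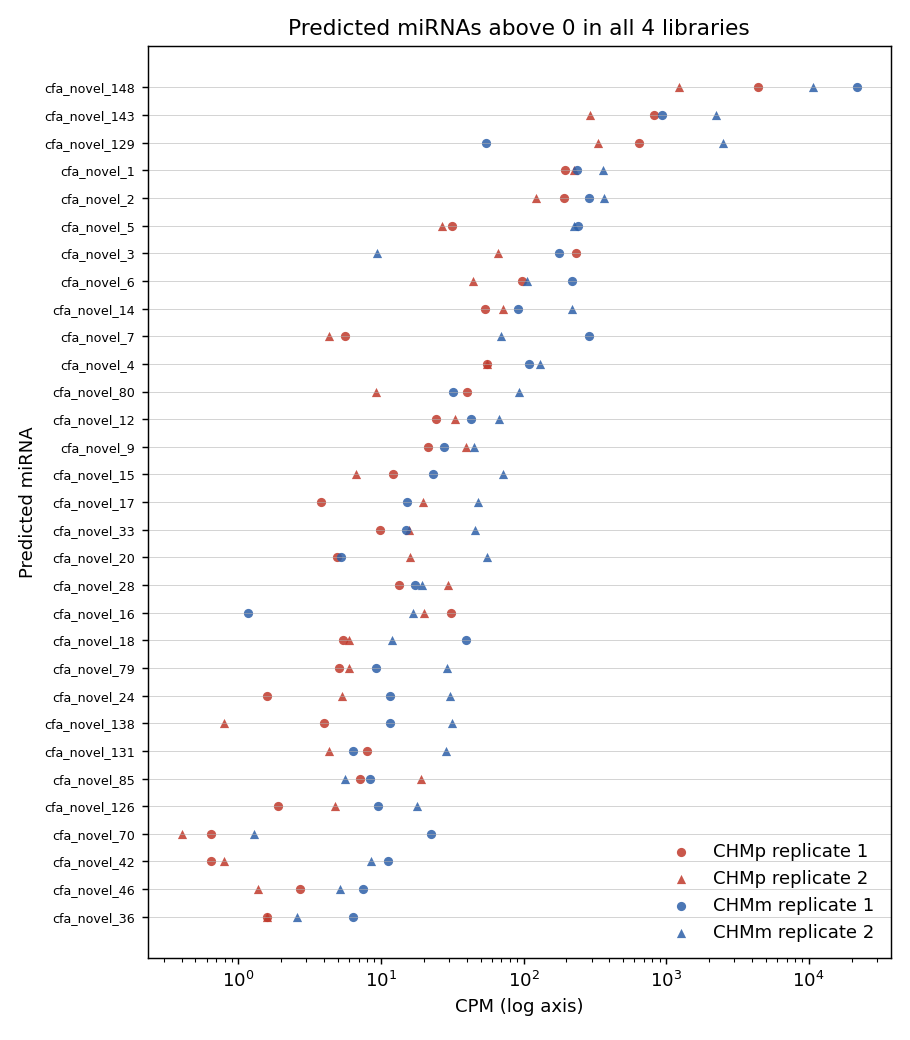
CPM (log axis) of the 31 predicted miRNAs above 0 in all 4 libraries, ordered by mean level, with 1 point per library (red pTDEs, blue mTDEs; circles replicate 1, triangles replicate 2). cfa_novel_148 stands apart at the top with 1223 to 21749 CPM, and cfa_novel_129 has its mTDE libraries at 54.4 and 2515 CPM on either side of its pTDE libraries.

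The test between the lines could be made for 63 of the 156 predicted miRNAs, those above 0 in both libraries of at least 1 line, of which 23 entered through pTDEs only and 9 through mTDEs only. Entering through 1 line favors members that are high there, although 13 of the 23 and 2 of the 9 overlapped between the lines, so the counts of tested members are a description and no more. At an adjusted p under 0.05 by limma, over all 326 rows tested, 0 predicted miRNAs were higher in pTDEs and 0 were lower; over all rows, predicted and known, 0% were higher and 1.84% lower. At an unadjusted p under 0.05, 8 predicted miRNAs were higher in pTDEs (12.7% of 63, against 10.1% of all rows tested) and 11 lower (17.5%, against 9.51%). All 8 of the higher and 6 of the 11 lower had entered through the line in which they were higher. With limma voom on the recovered reads, 0 were higher and 1 lower at an adjusted p under 0.05 (over all rows 1.53% and 3.37%), and 10 and 9 at an unadjusted one (over all rows 12% and 8.28%). The libraries of the lines did not overlap for 11 members higher in pTDEs (17.5%, against 26.1% of all rows tested) and 27 lower (42.9%, against 27.3%). Without pTDE replicate 1, and likewise without pTDE replicate 2, 10 members were called higher and 1 lower at an adjusted p under 0.05, as were 11.3% and 1.23% of all rows tested; the spread of each row then came from the mTDE libraries alone, where those 10 were at 0 in both. At an unadjusted p under 0.05, 4 members were higher without mTDE replicate 1 (7.67% of all rows), and the 11 lower became 6 without pTDE replicate 1 (6.44% of all rows), 3 without pTDE replicate 2 (5.21%) and 16 without mTDE replicate 1 (14.7%).

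Among the 31 members above 0 in all 4 libraries, where a value of 0 plays no part, the median log2 fold change was -1.19 (pTDEs minus mTDEs). Of the 31, 26 had a log2 fold change below 0, 20 were lower in pTDEs with no overlap (64.5%, against 31.2% of the 231 rows above 0 in all libraries) and 1, cfa_novel_16, was higher with no overlap (3.23%, against 19% of those rows). The median over the 231 rows was -0.29, and over the 198 known miRNAs among them -0.11. With median-ratio size factors, which moved the median of all tested rows from -0.03 to 0.22, the medians were -0.95 for the predicted and 0.13 for the known miRNAs. These lists are described and not tested against each other, and the summed level of the epithelial miRNAs and that of mir-122 moved the same way between the lines without overlap; their part in the values was not tested.

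**Figure D3:**
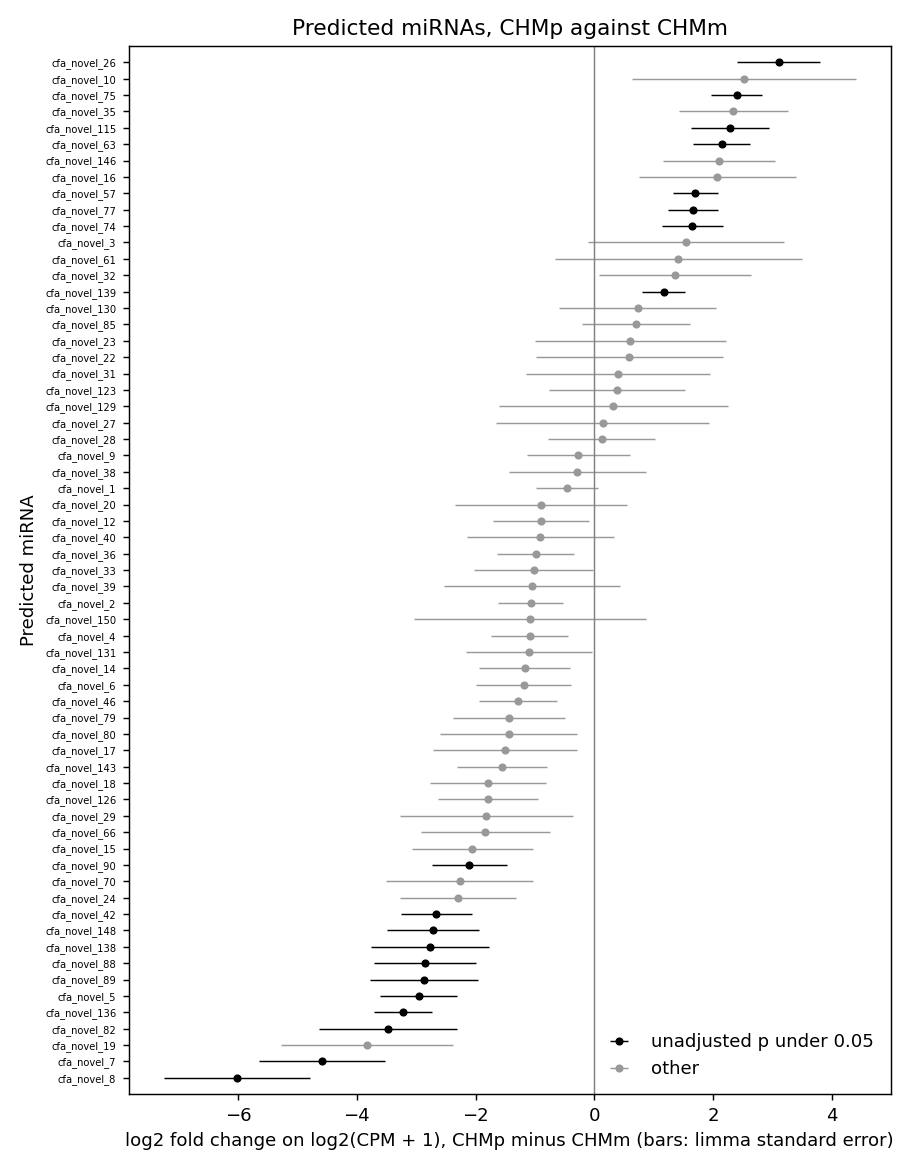
Log2 fold change on log2(CPM + 1), pTDEs (CHMp) minus mTDEs (CHMm), of the 63 predicted miRNAs tested, in order; bars are limma standard errors, and black marks the 19 with an unadjusted p under 0.05. The values run from -6.02 for cfa_novel_8 to 3.11 for cfa_novel_26, and none passed an adjusted p of 0.05.

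Toward mTDEs, cfa_novel_8 (chr10:38018923-38018993, minus strand) was at 4.76 and 0 CPM in pTDEs and 110 and 219 CPM in mTDEs, a mean 69.0-fold higher and a log2 fold change of -6.02 ± 1.23 (SE). cfa_novel_7 (chr18:25540653-25540710, plus strand) was at 5.56 and 4.35 CPM in pTDEs and 287 and 69.6 CPM in mTDEs, 36.0-fold higher and -4.59 ± 1.06 on the log2 scale (SE). cfa_novel_5 (chr2:71917709-71917775, plus strand) was at 31.8 and 26.7 CPM in pTDEs and 241 and 226 CPM in mTDEs, 7.97-fold higher and -2.96 ± 0.65 on the log2 scale (SE). The replicates of cfa_novel_5 differed least among the 3, and for all 3 each mTDE library was far above each pTDE library. The adjusted p was 0.10 for each by limma, and the log2 fold changes stayed between -7.28 and -4.76 for cfa_novel_8, between -5.60 and -3.57 for cfa_novel_7 and between -3.08 and -2.84 for cfa_novel_5 with any 1 library left out.

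Others had lower levels or rested more on 1 library. cfa_novel_19 (chr11:26741536-26741600, plus strand), chosen after its values were seen, was at 2.22 and 0 CPM in pTDEs and 6.94 and 81.5 CPM in mTDEs, a log2 fold change of -3.83 ± 1.45 (SE, adjusted p = 0.26, limma), with mTDE replicate 2 far above the other libraries. cfa_novel_82 (chr30:37539865-37539927, plus strand) was at 2.22 and 0 CPM in pTDEs and 8.10 and 42.9 CPM in mTDEs, a log2 fold change of -3.48 ± 1.16 (SE, adjusted p = 0.20, limma) that rests on mTDE replicate 2, and -2.34 without it. cfa_novel_136 (chr20:50951771-50951840, plus strand) was at 0 in both pTDE libraries and at 8.10 and 8.58 CPM in mTDEs, so that its mean was at least 15.6-fold higher in mTDEs than the mean 3-read limit of the pTDE libraries. It was the only member found in both mTDE libraries and in neither pTDE library with over 3 reads, a pattern held by 1.59% of the members tested, against 2.15% of all rows tested. Its adjusted p was 0.055 by limma, and ran from 2.0e-05 to 0.42 with the other settings. cfa_novel_136 entered the test through mTDEs only, as did cfa_novel_8, cfa_novel_19, cfa_novel_82, cfa_novel_88, cfa_novel_89 and cfa_novel_90, so their p-values are a description. cfa_novel_42, 1 of a reverse-complement pair at chr7:77728517-77728585, was at 0.64 and 0.79 CPM in pTDEs, which is 4 reads in each, and at 11.3 and 8.58 CPM in mTDEs. The remaining members lower at an unadjusted p under 0.05, beside cfa_novel_148, were cfa_novel_88, cfa_novel_89, cfa_novel_90 and cfa_novel_138, with log2 fold changes of -2.85, -2.87, -2.11 and -2.77.

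Members found only in pTDEs were at low levels. There were 10 with over 3 reads in each pTDE library and at 0 in either mTDE library, counting pairs once, which is 15.9% of the members tested, against 10.4% of all rows tested. cfa_novel_26 (chr24:39048206-39048265, plus strand) had the highest mean of them, at 4.13 and 13.5 CPM, at least 8.16-fold above the mean 3-read limit of the mTDE libraries. cfa_novel_75 and cfa_novel_115 have the same mature sequence and overlapping precursors, at chr21:40303479-40303530 and chr21:40303415-40303496 on the minus strand, and were at 3.81 and 4.75 CPM and at 1.91 and 7.13 CPM. Their bounds were at least 3.97-fold and 4.19-fold, and their values differ although the mature letters do not. cfa_novel_63 (chr10:27474055-27474094, minus strand) was at 2.38 and 4.75 CPM and cfa_novel_57 (chr25:49330889-49330946, minus strand) at 2.54 and 1.98 CPM, at least 3.31-fold and 2.10-fold above the limit.

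The other 5 of these members were cfa_novel_35, cfa_novel_74, cfa_novel_77, cfa_novel_139 and cfa_novel_146. cfa_novel_35 and cfa_novel_146 rest on pTDE replicate 1, at 10.6 against 1.19 CPM and 9.21 against 0.79 CPM, and without it their log2 fold changes were 1.13 and 0.84 in place of 2.34 and 2.10. Likewise, cfa_novel_26 and cfa_novel_115 leaned on pTDE replicate 2, with log2 fold changes of 2.36 and 1.54 without it in place of 3.11 and 2.28. The 3 others stood at 0.95 to 3.49 CPM in every pTDE library, with bounds from at least 1.17-fold for cfa_novel_139 to 2.17-fold for cfa_novel_74, whose log2 fold change of 1.65 was 1.13 without pTDE replicate 1. All 10 entered the test through pTDEs only and were chosen for being at 0 in mTDEs, so no p-value is given for them.

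The miRDeep2 score was available for 154 of the 156. The authors computed it from the pooled reads of all libraries, so it is not independent of level, and it is described here by bands and by rank. Many scores in the authors' list lie above the range that their methods give for it, and they are taken as listed. Of the 13 members with a score of 100 or more, 11 were above 0 in all 4 libraries (84.6%) and 0 in exactly 1. Of the 38 with a score of 10 to under 100, 10 were in all 4 (26.3%) and 11 in exactly 1 (28.9%). Of the 74 with a score of 5 to under 10, 7 were in all 4 (9.46%) and 48 in exactly 1 (64.9%), and of the 29 with a score of 4 to under 5, 3 were in all 4 (10.3%) and 21 in exactly 1 (72.4%). Most scored members, 103 of 154, had a score under 10. The shares in all 4 libraries rose from the lowest bands to the highest, and the 2 bands under 10 did not differ by more than 1 percentage point.

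**Figure D4:**
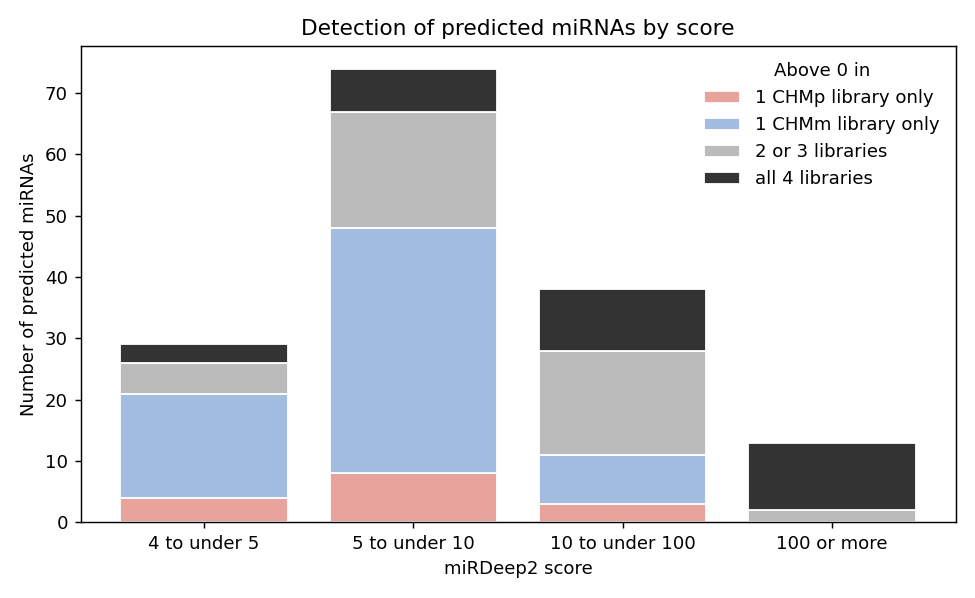
Number of predicted miRNAs (vertical) in 4 bands of the miRDeep2 score, split by the libraries in which each was above 0: 1 pTDE (CHMp) library only, 1 mTDE (CHMm) library only, 2 or 3 libraries, or all 4. Members seen once make up 21 of 29 and 48 of 74 in the lower bands, 11 of 38 in the next and 0 of 13 in the highest.

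Level followed the score only in part. Across the 154 members, Spearman's rho between score and mean CPM was 0.47 in pTDEs and 0.41 in mTDEs, a description over miRNAs that share the same libraries. Over those above 0 in both libraries of the line it was 0.44 (54 members) and 0.40 (40 members), and it was 0.26 in mTDEs without replicate 2. The median of the mean CPM by band, from the lowest score up, was 0, 0, 2.05 and 32.1 CPM in pTDEs and 4.72, 5.15, 8.55 and 156 CPM in mTDEs. The 3 most abundant members went against this order: cfa_novel_148 and cfa_novel_143 had scores under 5 and cfa_novel_129 a score between 5 and 10. By contrast, cfa_novel_1 and cfa_novel_2 were the most abundant of the 13 with a score of 100 or more, whose highest means were 212 CPM in pTDEs and 327 CPM in mTDEs.

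**Figure D5:**
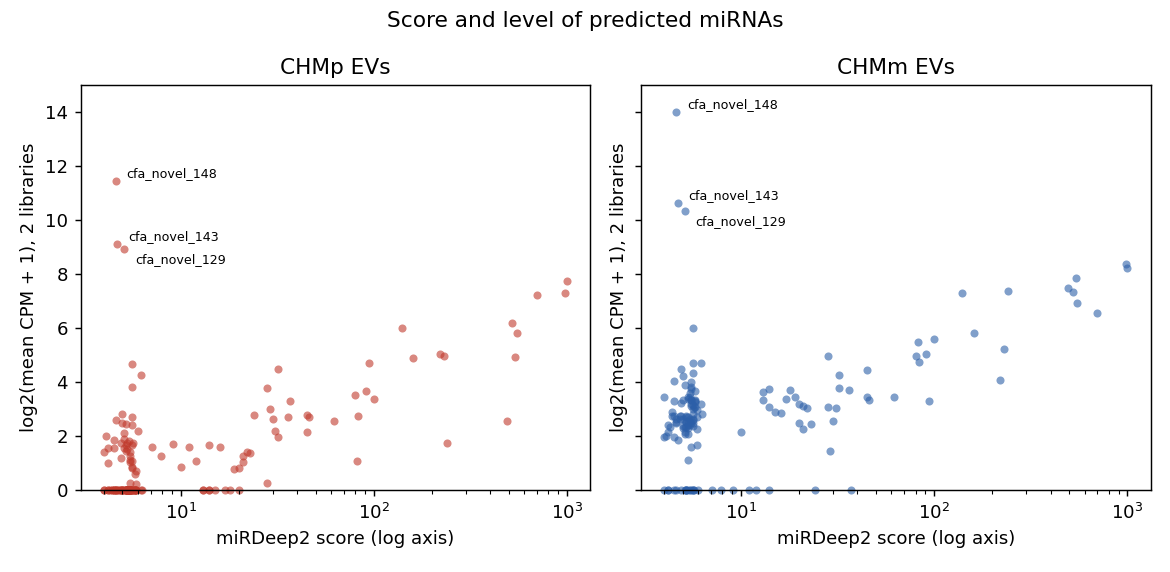
Mean level as log2(mean CPM + 1) over 2 libraries (vertical) against the miRDeep2 score (horizontal, log axis) of the 154 scored predicted miRNAs in pTDEs (left) and mTDEs (right). cfa_novel_148, cfa_novel_143 and cfa_novel_129 lie far above the other members at the low end of the score, and most members of low score are at or near 0 in pTDEs.

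The authors' list also names, for many predictions, a miRNA of another species with the same seed. Such an example was given for 97 of the 103 members with a score under 10 and for 15 of the 51 with a score of 10 or more. The part that a shared seed plays in the score, and so in passing the authors' cutoff, was not analysed here. This split is therefore a description of the list and not a result about the members. Of the low-scoring 103, 10 were above 0 in all 4 libraries and 69 in exactly 1, and of the other 51, 21 and 11. A shared seed is short and recurs by chance, and it was not taken as homology here. No table of known canine mature sequences was used, so whether a prediction overlaps a known canine miRNA was not analysed here.

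Precursors were spread over the genome, with 12 of the 156 on chromosome 6, 10 each on chromosomes 1 and 20 and 9 on chromosome 24. The 8 reverse-complement pairs each lie at 1 locus listed on both strands, and the strand their reads came from was not analysed here. cfa_novel_10 and cfa_novel_11, for example, share chr24:22892650-22892709 on the minus and the plus strand, and cfa_novel_12 and cfa_novel_13 share chr24:25522863-25522916 on the plus and the minus strand. The rows of all 8 pairs had the same value in every library, so each pair holds 1 measurement. cfa_novel_10 was at 27.3 and 36.8 CPM in pTDEs and at 31.8 and 0 CPM in mTDEs, a log2 fold change of 2.51 that was -0.0041 without mTDE replicate 2. cfa_novel_12 was at 24.1 and 33.3 CPM in pTDEs and 43.1 and 67.4 CPM in mTDEs, and cfa_novel_22 (chr6:12879003-12879058) was at 5.40 and 5.74 CPM in pTDEs and 0 and 18.0 CPM in mTDEs. The pairs led by cfa_novel_50, cfa_novel_84 and cfa_novel_112 were each seen in 1 mTDE library alone, at 24.9, 9.25 and 9.84 CPM, and cfa_novel_77 was among the members found only in pTDEs.

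A further 6 pairs share an identical mature sequence without being reverse complements. Their values were the same in every library for 5 of the 6, the exception being cfa_novel_75 and cfa_novel_115. cfa_novel_94 and cfa_novel_95 lie 165860 bases apart, at chr14:45001576-45001633 and chr14:45167494-45167551 on the plus strand, and cfa_novel_98 and cfa_novel_163 lie on different chromosomes, at chr5:3384264-3384311 and chr2:72758227-72758271. Reads of the mature sequence cannot say from which of these loci they came. Each of the 5 was above 0 in a single library, at 18.2 CPM for cfa_novel_94 and 15.0 CPM for cfa_novel_68 in mTDE replicate 1, 11.3 CPM for cfa_novel_152 in the same library, 19.7 CPM for cfa_novel_98 in mTDE replicate 2 and 3.96 CPM for cfa_novel_151 in pTDE replicate 2.

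Clusters of nearby precursors with different mature sequences were few. Within 10000 bases of each other lay 2 pairs. cfa_novel_131 and cfa_novel_27, at chr8:69278524-69278583 and chr8:69280668-69280722, are 2084 bases apart on the plus strand. cfa_novel_131, which has the seed of human miR-655-3p in the authors' annotation, was at 7.94 and 4.35 CPM in pTDEs and 6.36 and 28.8 CPM in mTDEs, with the mTDE libraries on either side of pTDE replicate 1. cfa_novel_27 was at 9.21 and 1.98 CPM in pTDEs and 0 and 24.0 CPM in mTDEs. Both were highest in mTDE replicate 2 and had overlapping lines, with log2 fold changes of -1.10 ± 1.06 and 0.14 ± 1.79 (SE) and adjusted p of 0.60 and 0.98 by limma. For cfa_novel_131 the value was -0.09 without mTDE replicate 2 and -2.10 without mTDE replicate 1. For cfa_novel_27 the value was -2.18 without mTDE replicate 1 and -0.75 without pTDE replicate 1, and 2.46 without mTDE replicate 2 and 1.03 without pTDE replicate 2. The other pair, cfa_novel_30 and cfa_novel_156 on chromosome 30, lies 6630 bases apart on opposite strands. cfa_novel_30 was at 0 and 7.13 CPM in pTDEs and 0 and 14.6 CPM in mTDEs, and cfa_novel_156 was at 12.9 CPM in mTDE replicate 2 and at 0 elsewhere.

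The first of these pairs is part of a wider group, with 4 members between chr8:69102958 and chr8:69294940, a stretch of 191983 bases. This end of canine chromosome 8 carries the imprinted DLK1-DIO3 domain, which holds a large cluster of miRNAs in placental mammals. The other 2 members were cfa_novel_111 (chr8:69102958-69103021, plus strand), with the seed of human miR-431-5p, and cfa_novel_117 (chr8:69294881-69294940, minus strand). cfa_novel_111 was at 0 and 3.76 CPM in pTDEs and 2.31 and 0 CPM in mTDEs, and cfa_novel_117 at 11.2 CPM in mTDE replicate 2 alone. None of the 4 separated the lines, and mTDE replicate 2 held the highest value of 3 of the 4. Human miR-655 and miR-431 both belong to that cluster.

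cfa_novel_29 was a near copy of cfa_novel_148 at another locus, chr6:7488087-7488133 on the plus strand. Both mature sequences have 19 bases and differ by G6U and C17U, with positions counted from 1 at the 5′ end, cfa_novel_29 first; the differing bases are in capitals here.
cfa_novel_29: cucccGcugcuucacuCga
cfa_novel_148: cucccUcugcuucacuUga
The first difference lies in the seed. cfa_novel_29 was at 5.88 and 0 CPM in pTDEs and 23.1 and 2.57 CPM in mTDEs, highest in mTDE replicate 1 and next in pTDE replicate 1, the libraries in which cfa_novel_148 was highest within its line. This pair was chosen after its values were seen.

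The mature sequences were 18 to 25 bases long with a median of 21, and 63 of 156 had 22 bases or more. Their GC content had a median of 63.2% and ran from 27.3% to 100%, with 49 at 70% or more. U was the first base of 57 (36.5%), the base with which many known miRNAs begin. The 31 members above 0 in all 4 libraries had a median GC content of 60%, began with U in 13 and had 22 bases or more in 17, and the 82 seen in 1 library had a median GC content of 64.3%, began with U in 28 and had 22 bases or more in 26. A run of 5 or more G occurred in 14 members, 9 of them seen in 1 library, and a run of 5 or more C in 13, 7 of them seen in 1 library.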

How the data were processed

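Small RNA of EVs from CHMp and CHMm was sequenced by the authors, who trimmed adapters with cutadapt and checked reads with FastQC, joined the forward and reverse reads of each library into 1 set, predicted miRNAs with miRDeep2 on CanFam3.1 from all libraries together, kept those scoring 4 or more, and ran the quantifier of the same package on known and predicted sequences alike (tool versions are not given in the sources used here). The deposited per-library values are whole numbers described as CPM, but they have the form of log2(CPM + 1) times a library constant, and were treated as a score. The authors' own comparison of the lines in the same table (edgeR's log2 fold change and mean log2 CPM, likelihood ratio score, p-values and false discovery rate) was deposited too and was not used. No score of a single prediction is printed.

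CPM were recovered as 2 to the power of (value/s), minus 1, with s (495, 493, 487 and 426) solved so that each library totals 1000000. The worth of 1 read is the largest step of which all distinct values under 20 CPM were whole multiples, allowing for rounded deposited values and for CPM kept to 2 decimals (100% in each library). Whole reads are resolved up to 112 to 263 CPM. A listed 0 was taken to allow up to 3 reads, and folds against a line at 0 are bounds against the mean limit of its libraries (0.535 CPM in CHMp, 1.08 CPM in CHMm). The test was limma 3.58.1 (R 4.3.3) on log2(CPM + 1), with eBayes, a trend and the cell line as the only term, for the 326 rows detected in each library of one or both lines, Benjamini-Hochberg adjusted over these rows. The prior degrees of freedom were 2.4. Fold changes on this scale understate those of low members. The fit was tested on simulated data. Python 3.11.15 with numpy 2.4.6, pandas 2.3.3, scipy 1.17.1 and matplotlib 3.10.9 was used for the rest.

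Sequences and loci of the predictions come from the authors' list; what CanFam3.1 annotates at the loci was not analysed here, and coordinates are 1-based. Members named are the 5 highest by mean CPM in each line, the 5 largest log2 fold changes each way among those with an unadjusted p under 0.05 and no overlap, those over 3 reads in both libraries of 1 line and at 0 in the other, reverse-complement and identical pairs, and precursors within 10000 bases; cfa_novel_29, cfa_novel_93, cfa_novel_111, cfa_novel_117, cfa_novel_16, cfa_novel_19, the other lower members and those of the closing section were chosen after their values were seen. Members, lists and tests were chosen with earlier results of these data known. Alternatives were other pseudocounts, row filters, the deposited values as CPM, median-ratio size factors, no trend, voom on the recovered reads, identical sequences once, a replicate block, leaving out each library and, added after seeing the data, every row counted. Replicate numbers were not taken as pairs, since the labels do not tie a number to a batch.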

Additional observations from a re-analysis of the deposited data

How the results depend on the processing

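The counts of members called at an adjusted p under 0.05 by limma, 0 higher and 0 lower in pTDEs, were 8 and 1 at a pseudocount of 0.1 CPM (28 and 11 of all 326 rows), 10 and 1 when the deposited values stood in for CPM (39 and 11 of 326), and 0 and 1 with voom (5 and 11 of 326); leaving out 1 library gave 0 to 10 and 0 to 1. At an unadjusted p under 0.05, the 8 higher became 4 at a pseudocount of 5 CPM (6.44% of all rows tested), 2 when every detected row was tested (2.82%) and 0 when a mean of 10 CPM was required (3.61%; 4 to 10 with a library left out), and the 11 lower became 7 at a pseudocount of 0.1 CPM (8.28%), 5 for every detected row (5.21%), 7 under the 10 CPM filter (9.64%) and 3 with the deposited values (5.21%; 3 to 16 with a library left out). A fit that leaves out a library takes the lone sample of that line to vary like the others. Why these counts moved was not tested, except that row filters change which rows are tested.

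Members above 0 in both libraries numbered 54 in pTDEs and 40 in mTDEs; 89 and 130 were above 0 in at least 1 library and 16 and 23 at 10 CPM or more in both. Single libraries gave 70 to 73 in pTDEs and 83 to 87 in mTDEs. The mean summed level of 5011 CPM in pTDEs and 22074 CPM in mTDEs was 109382 and 170230 for the unconverted deposited values, and 5807 CPM in mTDEs without cfa_novel_148; single libraries gave 2909 to 7112 and 18804 to 25345 CPM. Spearman's rho of score and level was 0.41 to 0.47 in single pTDE libraries and 0.26 to 0.35 in single mTDE libraries. Counting every row in place of pairs once kept each of these counts within 1.5 times, with 59 and 42 rows above 0 in both libraries.

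Of the 26 named members tested, 5 changed sign under some setting: cfa_novel_1 was at 0.033 with the deposited values as CPM; cfa_novel_10 at -0.0041 without mTDE replicate 2 (up to 5.03 with another library left out); cfa_novel_22 at -0.022 with a pseudocount of 5 CPM and -1.53 without mTDE replicate 1 (up to 2.72); cfa_novel_27 at -0.28 with a pseudocount of 5 CPM, -0.75 without pTDE replicate 1 and -2.18 without mTDE replicate 1 (up to 2.46); and cfa_novel_129 at -0.16 without pTDE replicate 1 and -2.43 without mTDE replicate 1 (up to 3.07). Over named members and settings, 297 values kept their direction and side of the threshold, 43 passed it with the same direction and 9 reversed. With the replicate number as a block, 0 members were called either way (0 and 7 of all rows), and 6 higher and 11 lower had an unadjusted p under 0.05 (8.28% and 9.51% of all rows). Deviations of same-numbered libraries correlated with r = 0.15 over 326 rows, across miRNAs and with 2 pairs only, so the numbers were not taken as pairing. With 2 libraries a line and 2330271 reads in the shallowest, a listed 0 there allows up to 1.29 CPM, so levels under that cannot be told from absence.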

Other observations

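Outside the neighbor distance used above, 2 members lay close on chromosome X, cfa_novel_48 at chrX:87468912-87468985 and cfa_novel_103 at chrX:87505482-87505540, both on the plus strand. In the authors' annotation they have the seeds of human miR-1298-5p and miR-1911-5p, which lie together in introns of the serotonin receptor gene HTR2C. cfa_novel_48 was at 4.45 CPM in pTDE replicate 1 and cfa_novel_103 at 5.14 CPM in pTDE replicate 2, the highest level of any member seen only in that library, which cfa_novel_48 shared with cfa_novel_120, and both were at 0 in the other 3 libraries. cfa_novel_9 (chrX:42781869-42781929, plus strand), with the seed of human miR-500a-5p, whose cluster is also X-linked, was at 21.3 and 39.6 CPM in pTDEs and 27.8 and 44.6 CPM in mTDEs, with overlapping lines.

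Counting each reverse-complement pair by its lower-numbered row alone, 6 seeds occurred in 2 members each with different mature sequences. cfa_novel_120 and cfa_novel_138, for example, share CUGGCUG, and cfa_novel_120 was at 4.45 CPM in pTDE replicate 1 alone while cfa_novel_138 was above 0 in all 4 libraries, at 3.97 and 0.79 CPM in pTDEs and 11.6 and 31.8 CPM in mTDEs. One member, cfa_novel_53, maps to the mitochondrial genome and was at 23.2 CPM in mTDE replicate 2 alone. cfa_novel_3 (chr18:53843896-53843959, minus strand) was, after cfa_novel_10, the most uneven between the mTDE libraries of the members with a score of 100 or more, at 178 and 9.44 CPM, with 233 and 66.4 CPM in pTDEs.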
